A study of Mus musculus with 10 samples.

Results

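Expression of the transforming growth factor β (TGF-β) axis was examined in mouse liver for 10 genes, namely the ligands *Tgfb1*, *Tgfb2* and *Tgfb3*, the receptors *Tgfbr1*, *Tgfbr2* and *Tgfbr3*, and the intracellular mediators *Smad2*, *Smad3*, *Smad4* and *Smad7*. The genes were chosen by name, and every array probe named for 1 of them was taken. A named probe was found for 9 genes, which gave 17 probes of the 45281 on the array. *Smad4*, the common partner of the receptor-activated SMADs, had no probe under its name here and was not analysed. Of the 17 probes, 7 probes for 5 genes were above background on at least 5 of the 10 arrays and were tested, together with all other such probes of the array (17368 in all).

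The ligands are secreted bound to a latency peptide and are held in the matrix until they are activated. Free ligand is presented by the co-receptor TGFBR3 (betaglycan) or binds TGFBR2 directly, TGFBR2 phosphorylates TGFBR1, and TGFBR1 phosphorylates SMAD2 and SMAD3, which enter the nucleus with SMAD4 and bind target genes. SMAD7 is induced by the pathway and blocks the receptors. In liver the pathway is known for driving collagen production by hepatic stellate cells and for restraining hepatocyte growth.

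All mice were of the 129S1/SvImJ;C57Bl/6J strain. The WD SW group ate a high fat Western diet (WD) with fructose and glucose in the drinking water (sugar water, SW), and the other group ate a chow diet (CD) with normal water. Diets were given for 8 weeks to male mice that were 8 to 12 weeks old at the start, and RNA of whole liver was hybridised to Illumina bead arrays, 5 per diet. Signal strength differed between the arrays. The 95th percentile of the unnormalized signal averaged 937 ± 64.6 for WD SW and 558 ± 209 for CD (SD, n = 5 each). The spread within CD came from replicate 1, which reached 921, within the WD SW range of 870 to 1023, whereas the other 4 CD arrays lay between 403 and 548. The share of probes detected above background was 41.6% to 45.8% with WD SW and 41.2% on CD replicate 1, against 33.7% to 36.5% on the other CD arrays. The tested probes of the members are given below also with brightness as a covariate or against CD replicate 1 alone. CD replicate 1 was the only bright CD array, so both fits rest largely on it and are not independent of each other. With the covariate the median SE over all tested probes was 0.258, against 0.163 without it. A call lost in that fit is therefore not by itself a smaller difference.

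Of the 7 tested probes, 1 was called higher in WD SW livers (limma, adjusted p under 0.05 over all tested probes) and 2 were called lower. Over the whole array, 17.2% of tested probes were called higher and 14% were called lower. By gene, with the brightest tested probe standing for each, 1 of the 5 genes was higher (*Tgfbr2*) and 1 was lower (*Smad3*), where 14.5% of all 10187 genes were called higher and 15.4% lower. The 5 values of a diet lay apart from those of the other diet for 2 of the 7 probes, as they did for 20.9% of all tested probes. The median log2 fold change of the 7 probes was -0.22, and that of all tested probes was -0.01. In bulk liver, fewer cells of a type and less RNA per cell cannot be told apart, and levels of different probes are not compared.

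The 2 genes that were called lie on chromosome 9, and the 250 bases before their annotated start sites are shown as a description. The sequences are from RefSeq (GRCm38.p6), on the strand of the gene and 5′ to 3′, and capitals mark CAGAC, a core SMAD-binding element, searched on both strands (as CAGAC or GTCTG).
Tgfbr2, chr9:116175364-116175613, minus strand: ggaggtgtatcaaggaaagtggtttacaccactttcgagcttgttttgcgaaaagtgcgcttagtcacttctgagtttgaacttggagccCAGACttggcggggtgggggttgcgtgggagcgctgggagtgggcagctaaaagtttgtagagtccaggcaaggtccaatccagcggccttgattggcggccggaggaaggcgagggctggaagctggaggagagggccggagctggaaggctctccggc
Smad3, chr9:63757995-63758244, minus strand: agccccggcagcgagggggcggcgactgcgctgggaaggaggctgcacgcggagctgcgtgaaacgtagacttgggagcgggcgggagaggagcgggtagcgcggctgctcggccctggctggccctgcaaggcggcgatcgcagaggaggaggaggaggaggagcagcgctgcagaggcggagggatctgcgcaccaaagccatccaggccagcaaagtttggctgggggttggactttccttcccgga
The *Tgfbr2* window held 1 match, which began 160 bases before the start site, and the *Smad3* window held 0. Of 32851 promoter windows of this length, 42.2% held a match. Neither window held GGCGC or GCGCC, a GC-rich SMAD element searched on both strands, which 32% of the windows held. The *Smad3* window was 69.2% G or C and the *Tgfbr2* window 58.4%, against a median of 52.4% over all windows. Among members not tested or not called, only windows of *Tgfb1*, *Tgfb2* and *Tgfbr1* were read, so the comparison with the called genes is incomplete. CAGAC matches numbered 2 in the *Tgfb2* window, 0 and 1 in the *Tgfbr1* windows and 0 in the *Tgfb1* window. GGCGC or GCGCC matches numbered 3 and 0 in the *Tgfbr1* windows, 1 in the *Tgfb1* window and 0 in the *Tgfb2* window. A link between such matches and the direction of change was not tested.

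The 3 ligands were measured at or near the background in both diets. *Tgfb1*, the main ligand in liver fibrosis, gave unnormalized signals of 93.6, 87.5, 87.8, 91.3 and 81.4 on WD SW replicates 1 to 5, against 91.6, 83.1, 81.3, 82.7 and 90.9 on CD replicates 1 to 5. The detection limits of the arrays lay between 84.3 and 95.8. *Tgfb1* was above the limit of its own array on 2 WD SW arrays and 1 CD array, and the diets overlapped. *Tgfb2* was above the limit on 2 WD SW arrays and 0 CD arrays, with signals from 86.4 to 97.5 and from 82.5 to 91.7. *Tgfb3* was above it on 0 WD SW arrays and 1 CD array, with signals from 79.9 to 91.0 and from 84.0 to 92.2. The ligands therefore had no place in the main test. In the alternative fit without the detection filter the log2 fold changes were 0.13 ± 0.14 for *Tgfb1*, 0.17 ± 0.12 for *Tgfb2* and -0.13 ± 0.13 for *Tgfb3*. Their limma adjusted p values were 0.658, 0.447 and 0.656. At these signals a difference between the diets was not detectable.

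**Figure D1:**
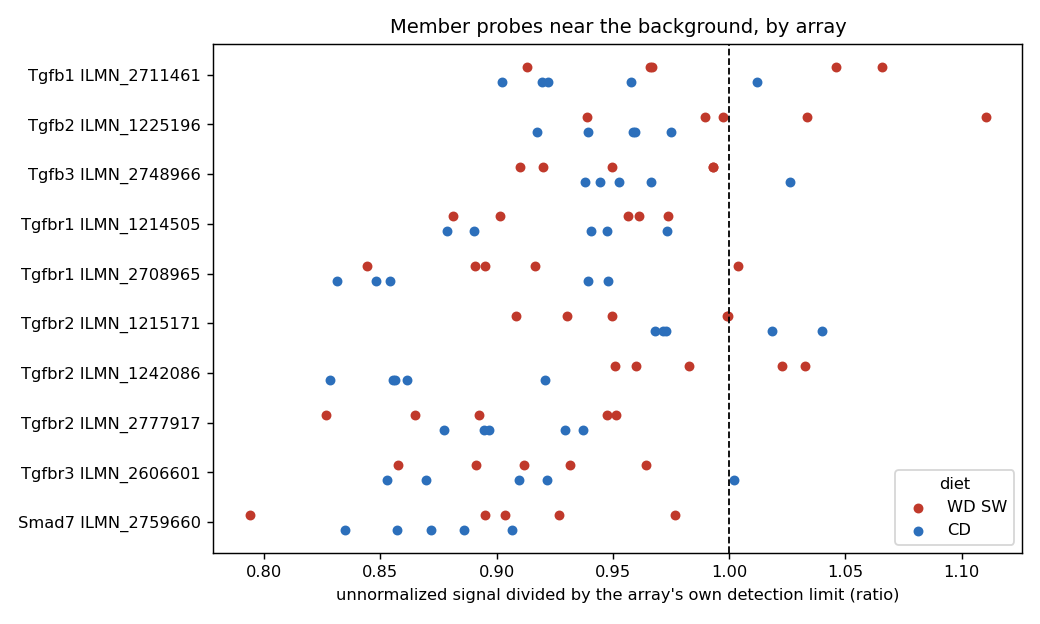
Unnormalized signal of the 10 member probes that were not tested, divided by the detection limit of the array (horizontal axis, ratio; the dashed line at 1 is the limit). Each point is 1 array, with WD SW above CD in every row. *Tgfb1* lies above the line on 2 WD SW arrays and 1 CD array, and *Smad7* on none, while the diets lie apart for 1 *Tgfbr2* probe (ILMN_1242086).

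The type II receptor gene *Tgfbr2*, whose product binds the ligand and starts the kinase cascade, was the member that rose. Its tested probe (ILMN_2760979) had log2 normalized intensities of 9.42, 9.52, 9.58, 9.46 and 9.56 in WD SW livers, against 8.15, 8.59, 8.91, 8.88 and 9.31 in CD livers. Every WD SW array lay above every CD array, and the WD SW arrays lay close together while the CD arrays were spread. The means were 9.51 ± 0.07 in WD SW and 8.77 ± 0.43 in CD (SD, n = 5 each), a log2 fold change of 0.74 ± 0.18 (SE) or 1.67-fold, with a 95% interval of 0.36 to 1.13 and a limma adjusted p of 0.00652. In the unnormalized signals the probe gave 1079.1, 1112.3, 1009.6, 976.0 and 1044.5 on the WD SW arrays, against 426.2, 341.7, 358.8, 312.2 and 446.6 on the CD arrays. The bright CD replicate 1, at 426.2, was among the other CD arrays and below the WD SW arrays, and the ratio of the mean signals was 2.77. With array brightness as a covariate the log2 fold change was 1.38 ± 0.22 (limma adjusted p = 0.00539), and against CD replicate 1 alone it was 1.36 ± 0.18. Both values rest largely on CD replicate 1, the array with the lowest *Tgfbr2* intensity.

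The other 3 *Tgfbr2* probes were at background on most arrays and were not tested. ILMN_1242086, above the detection limit on 2 WD SW arrays and 0 CD arrays, had log2 values of 4.92, 5.10, 5.10, 4.82 and 4.87 in WD SW livers, against 4.36, 4.29, 4.69, 4.09 and 4.35 in CD livers. These values lay apart between the diets, but with 0 CD arrays above the limit the CD level is only a bound. ILMN_1215171, designed on the cDNA AK090393 and not on the RefSeq transcript, had means of 4.86 ± 0.17 in WD SW and 5.13 ± 0.20 in CD, and ILMN_2777917 had means of 4.59 ± 0.24 and 4.61 ± 0.16 (SD, n = 5 each). For both probes the diets overlapped.

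The type I receptor gene *Tgfbr1*, which encodes the kinase that acts on SMAD2 and SMAD3, had 2 tested probes with opposite signs, and neither passed the test. The brighter probe (ILMN_2602711) had log2 intensities of 9.79, 10.25, 10.40, 10.13 and 10.20 in WD SW livers, against 9.32, 9.68, 10.47, 9.80 and 10.07 in CD livers. The diets overlapped, with the highest value on CD replicate 3 and the lowest on CD replicate 1. The difference was 0.29 ± 0.19, with a 95% interval of -0.13 to 0.70 and a limma adjusted p of 0.282. Before normalization this probe gave 1359.6 to 1755.8 on WD SW arrays and 540.8 to 986.3 on CD arrays, which did not overlap. With brightness as a covariate the difference was 0.86 ± 0.27 (limma adjusted p = 0.0816), and against CD replicate 1 alone it was 0.84 ± 0.23 (limma adjusted p = 0.0506).

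The dimmer *Tgfbr1* probe (ILMN_2980532) had log2 intensities of 6.49, 7.11, 6.53, 5.96 and 6.69 in WD SW livers, against 6.10, 6.67, 7.93, 7.06 and 7.10 in CD livers. CD replicate 3 was again the highest array, and the difference was -0.42 ± 0.28 with a 95% interval of -1.02 to 0.18 (limma adjusted p = 0.278). Its sign turned to 0.37 ± 0.40 with brightness as a covariate. The remaining 2 *Tgfbr1* probes were above the detection limit on 1 and 0 of the WD SW arrays and on 0 CD arrays.

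*Tgfbr3*, the gene for the co-receptor betaglycan, was close to the background and showed no difference past the threshold. Its tested probe (ILMN_2789239) had log2 intensities of 5.40, 5.83, 5.57, 5.21 and 5.83 in WD SW livers, against 5.71, 5.96, 5.73, 4.81 and 5.46 in CD livers, where it was above the detection limit on 5 and 4 arrays. The diets overlapped throughout, and the lowest and the highest value were both on CD arrays. The difference was 0.03 ± 0.20, with a 95% interval of -0.40 to 0.47 (limma adjusted p = 0.923). Its sign was not stable over the alternative settings.

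Of the receptor-activated SMADs, *Smad3* fell relative to the other probes of each array and *Smad2* did not pass the test. The brighter *Smad3* probe (ILMN_2772582) had log2 normalized intensities of 8.03, 8.79, 8.77, 8.63 and 8.53 in WD SW livers, against 8.65, 9.38, 9.48, 9.26 and 9.39 in CD livers. CD replicate 1 lay within the range of the WD SW arrays, and the other 4 CD arrays lay above it. The means were 8.55 ± 0.31 in WD SW and 9.23 ± 0.34 in CD (SD, n = 5 each), and the log2 fold change was -0.68 ± 0.19 (1.6-fold lower), with a 95% interval of -1.08 to -0.28 and a limma adjusted p of 0.0124. The dimmer *Smad3* probe (ILMN_2938893) had 5.60, 6.05, 6.05, 5.93 and 5.87 in WD SW livers, against 6.12, 6.76, 6.75, 6.79 and 6.42 in CD livers. Here the diets did not overlap, and CD replicate 1 was again the lowest CD array. The means were 5.90 ± 0.19 in WD SW and 6.57 ± 0.29 in CD, and the log2 fold change was -0.67 ± 0.16 (1.59-fold lower), with a 95% interval of -1.01 to -0.33 and a limma adjusted p of 0.00541.

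**Figure D2:**
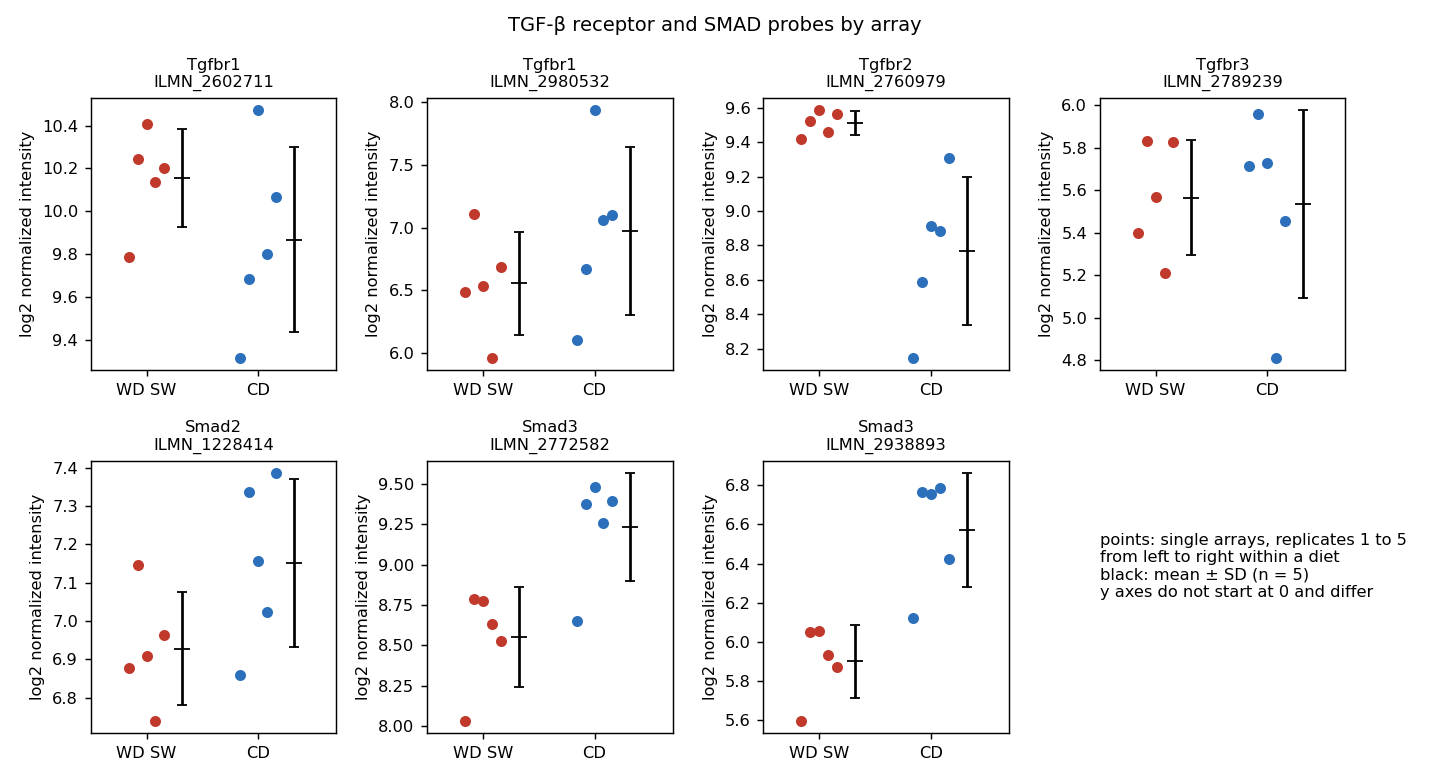
Log2 normalized intensity of the 7 tested probes (vertical axis, which differs between panels and does not start at 0) for WD SW and CD arrays. Points are single arrays, replicates 1 to 5 running left to right, and black marks are mean ± SD (n = 5). For *Tgfbr2* all WD SW points lie above the CD points, and for both *Smad3* probes CD replicate 1 is the lowest CD point.

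The *Smad3* difference was smaller in the fits that took account of array brightness, which rest largely on CD replicate 1. The unnormalized signals of the brighter probe were 466.0, 705.4, 612.1, 582.7 and 536.7 on the WD SW arrays, against 583.4, 565.0, 511.8, 387.6 and 474.5 on the CD arrays. Before normalization the diets overlapped and the WD SW mean was the higher, at 581 ± 88.9 against 504 ± 78.3 (SD, n = 5 each), a ratio of 1.15. The dimmer probe averaged 132 ± 13 on WD SW arrays and 127 ± 11.4 on CD arrays, a ratio of 1.03. These ratios are not corrected for brightness, which averaged 937 on WD SW arrays and 558 on CD arrays. With brightness as a covariate the log2 fold changes of the 2 probes were -0.13 ± 0.26 (limma adjusted p = 0.828) and -0.25 ± 0.23 (limma adjusted p = 0.586), and against CD replicate 1 alone they were -0.10 ± 0.27 and -0.22 ± 0.21. Without CD replicates 3 and 4, among the dim arrays, the brighter probe had a limma adjusted p of 0.0633 and the dimmer probe one of 0.0392. Since 4 of the 5 CD arrays were dim and no WD SW array was, diet and brightness cannot be told apart for *Smad3* beyond these values.

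**Figure D3:**
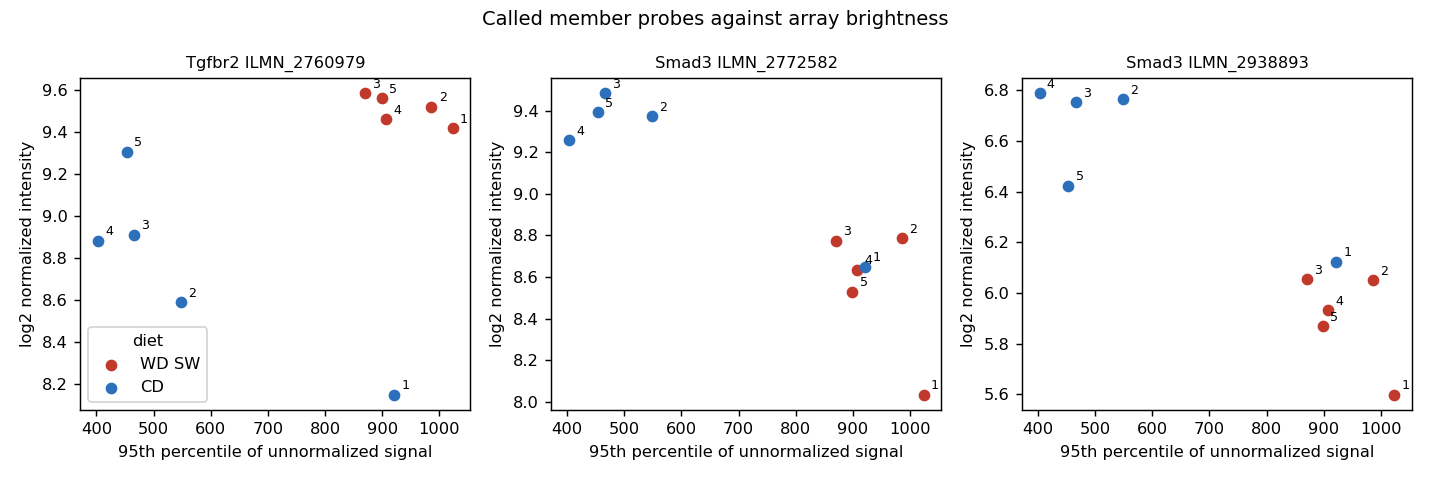
Log2 normalized intensity of the 3 called probes (vertical axis) against the brightness of each array, the 95th percentile of its unnormalized signal (horizontal axis). Points are WD SW and CD arrays with their replicate numbers. CD replicate 1, at a brightness of 921, lies at the bottom of the *Tgfbr2* panel. In the *Smad3* panels it lies within the WD SW range for ILMN_2772582 and just above that range for ILMN_2938893.

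*Smad2*, the gene for the other SMAD that TGFBR1 phosphorylates, had log2 intensities of 6.88, 7.15, 6.91, 6.74 and 6.96 in WD SW livers, against 6.86, 7.34, 7.16, 7.02 and 7.39 in CD livers. The diets overlapped, and CD replicate 1 was the lowest CD array, as for *Smad3*. The difference was -0.22 ± 0.14, with a 95% interval of -0.52 to 0.07 (limma adjusted p = 0.241), and with brightness as a covariate it was -0.04 ± 0.23. *Smad7*, the gene for the inhibitory SMAD that the pathway itself induces, was below the detection limit on every array, with signals from 76.1 to 88.7 on WD SW arrays and from 76.9 to 86.7 on CD arrays. Its level therefore had only an upper bound in both diets.

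**Figure D4:**
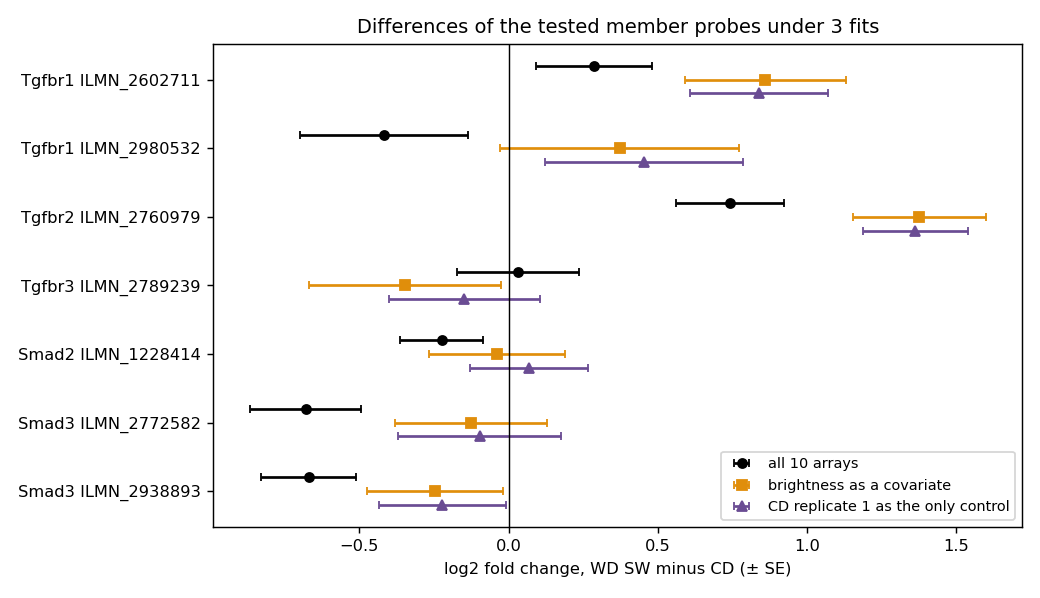
Log2 fold change (WD SW minus CD, ± SE, horizontal axis) of the 7 tested probes under 3 fits, namely all 10 arrays, array brightness as a covariate, and CD replicate 1 alone as control. *Tgfbr2* is above 0 in each of the 3 fits (0.74, 1.38 and 1.36), while the *Smad3* probes move toward 0 in the last 2 (-0.68, -0.13 and -0.10 for ILMN_2772582).

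The genes with the array pattern most like each called member were listed as a description, by Pearson's r over the 10 arrays between brightest tested probes. For *Tgfbr2* they were *Ets1*, a transcription factor gene, with r = 0.979, *Niban2* with r = 0.934 and *Snap29*, a gene of the vesicle fusion machinery, with r = 0.931. For *Smad3* they were *Dhx15*, which encodes an RNA helicase, with r = 0.958, *Nfatc1*, a transcription factor gene, with r = 0.954 and the zinc finger gene *Zfp119a* with r = 0.951. Both sets of values hold the diet difference and the brightness of the arrays.

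The rest of the pathway was read from lists of genes that store or pass on the signal, of its targets and of 3 genes that the study names. Of 121 such genes 81 were tested, of which 15 were higher and 13 were lower in WD SW livers. The median log2 fold change of the 81 was 0.00, and the share called higher, 18.5%, was near that of all genes given above. With brightness as a covariate 2 were higher and 1 was lower, and against CD replicate 1 alone 4 were higher and 3 were lower.

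Of 14 tested genes that store and activate the latent ligand, 1 was higher and 1 was lower, with a median of 0.02. That is 7.14% in each direction, beside 14.5% higher and 15.4% lower over all genes, so the count is not read as a result. *Dcn*, which encodes the ligand-binding proteoglycan decorin, was higher by 0.38 ± 0.13 (limma adjusted p = 0.0415), although its 3 tested probes ran from -0.43 to 1.79. *Itgav*, which encodes the αv chain of integrins that free the ligand, was lower, at -0.45 ± 0.15 (limma adjusted p = 0.0335), although another of its probes stood at 0.21. Both calls were lost on leaving out single arrays. *Thbs1*, the gene for the activator thrombospondin 1, was below the detection limit on every array.

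In the list of BMP and GDF ligands and antagonists, *Bmp1* and *Chrd* were lower, and neither encodes a growth factor of the family. *Bmp1*, which encodes a procollagen protease, had log2 intensities of 9.78, 10.23, 9.82, 9.71 and 10.19 in WD SW livers, against 10.98, 10.74, 11.04, 11.26 and 11.10 in CD livers. The diets did not overlap, and the difference was -1.08 ± 0.15 (limma adjusted p = 0.000139), although the other *Bmp1* probes ran from -0.07 to 0.49. *Chrd*, the gene for the BMP antagonist chordin, differed by -1.02 ± 0.18 (limma adjusted p = 0.000658). *Bmp1* was still called with brightness as a covariate (limma adjusted p = 0.0453) and *Chrd* was not, at -0.48 ± 0.24 (limma adjusted p = 0.264). The 2 tested growth factor genes, *Bmp4* and *Bmp5*, did not pass the threshold, at -0.04 ± 0.26 and -0.17 ± 0.18. Thus 2 of 4 tested genes of the list were lower and 0 were higher, with a median of -0.60, where 15.4% of all genes were lower. With the probes of each gene averaged, 1 of the 4 was lower and the median was -0.15, and *Bmp1* was no longer called. Of 6 tested genes for activins, inhibins and follistatins, *Inhbe*, which encodes the liver activin subunit βE, was higher by 0.92 ± 0.25 (limma adjusted p = 0.0113), 0 were lower and the median was 0.01. CD replicate 5 was far below the other CD arrays for *Inhbe*, and without it the gene was still called, but with brightness as a covariate it was not, at 0.59 ± 0.41 (limma adjusted p = 0.442).

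Among the 7 tested BMP and activin receptor genes, 1 was higher and 1 was lower, with a median of -0.12. *Eng*, the gene for endoglin, an endothelial co-receptor for TGF-β and BMP9, had log2 intensities of 6.59, 6.20, 6.66, 7.13 and 6.33 in WD SW livers, against 5.64, 5.50, 5.80, 5.20 and 5.56 in CD livers. All WD SW arrays lay above all CD arrays, and *Eng* was higher by 1.04 ± 0.18 (limma adjusted p = 0.000602). *Acvr2b*, an activin type II receptor gene, had 6.13, 6.40, 6.42, 6.41 and 6.24 in WD SW livers, against 7.55, 7.08, 7.21, 8.08 and 8.05 in CD livers. Here all WD SW arrays lay below, and the difference was -1.27 ± 0.19 (limma adjusted p = 0.000262). With brightness as a covariate both missed the threshold, at 0.94 ± 0.30 (limma adjusted p = 0.0841) and -0.99 ± 0.31 (limma adjusted p = 0.0827).

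Of the 3 tested BMP SMAD genes, *Smad1* was lower, at -0.56 ± 0.14 (limma adjusted p = 0.00764), 0 were higher and the median was -0.29. Its second tested probe stood at -0.90. Among 16 tested partners and negative regulators of SMADs, 1 was higher and 2 were lower, with a median of -0.08. *Ppm1a*, the gene for a phosphatase that acts on SMAD2 and SMAD3, was higher by 0.70 ± 0.17 (limma adjusted p = 0.00586), and remained past the threshold with brightness as a covariate at 1.06 ± 0.25 (limma adjusted p = 0.0309). *Nedd4l*, the gene for a ubiquitin ligase of activated SMAD2 and SMAD3, was lower, at -0.96 ± 0.16 (limma adjusted p = 0.000504), with another probe at -0.09. *Ep300*, the gene for the coactivator p300, was lower, at -0.62 ± 0.21 (limma adjusted p = 0.0355), with another probe at 0.10. In the branch that does not run through SMADs, 2 of 10 tested genes were higher and 3 were lower, with a median of -0.07. *Mapk14*, which encodes the kinase p38α, was higher by 0.92 ± 0.15 (limma adjusted p = 0.000473) and *Rock1*, which encodes a kinase of the cytoskeleton, by 0.48 ± 0.16 (limma adjusted p = 0.0329). *Traf6* and *Tab2*, genes for adaptors of the kinase TAK1, were lower, at -0.68 ± 0.16 (limma adjusted p = 0.00554) and -0.60 ± 0.21 (limma adjusted p = 0.0390). The calls of *Ep300*, *Tab2* and *Rock1* were lost on leaving out single arrays. *Ppm1a* was the only gene named in these 3 lists that was still called with brightness as a covariate. *Smad1* stood at -0.24 ± 0.21, *Nedd4l* at -0.66 ± 0.25 and *Traf6* at -0.46 ± 0.26 in that fit, with limma adjusted p values of 0.562, 0.142 and 0.343. *Mapk14* stood at 0.90 ± 0.25 and *Rock1* at 0.75 ± 0.26, with limma adjusted p values of 0.0590 and 0.103. Both missed the threshold with a larger SE, while *Mapk14* stood near its first value and *Rock1* above it.

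Genes that TGF-β is known to induce or repress in other cells were called in both directions. Of 18 tested, 7 were higher and 3 were lower, or 38.9% and 16.7%, beside 14.5% and 15.4% of all genes, and the median was 0.46. The 7 include *Col1a1* and *Pdgfb*, which passed the detection filter only through the WD SW arrays, so the share called higher is not read as a result. These counts varied with the processing. The authors' values gave 5 higher and 3 lower, and the 10 genes detected on all 10 arrays gave 5 higher and 3 lower. Leaving out WD SW replicate 3 gave 4 higher and 1 lower, and leaving out WD SW replicate 4 gave 4 higher and 3 lower. Without WD SW replicate 1 there were 6 higher and 1 lower, and without CD replicate 4 there were 8 higher and 2 lower. *Fn1*, the gene for the matrix protein fibronectin, had log2 intensities of 9.75, 8.22, 9.52, 10.14 and 9.81 in WD SW livers, against 7.02, 7.78, 7.60, 7.97 and 6.60 in CD livers. WD SW replicate 2 was the lowest of its diet, yet above every CD array, and the difference was 2.09 ± 0.33 (limma adjusted p = 0.000322), with another *Fn1* probe at 0.87. *Ccn2*, which encodes connective tissue growth factor, had 8.49, 7.99, 9.59, 7.80 and 7.05 in WD SW livers, against 6.89, 6.66, 6.47, 7.04 and 7.42 in CD livers. The diets overlapped through WD SW replicate 5 and CD replicate 5, and the difference was 1.29 ± 0.35 (limma adjusted p = 0.0117).

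The other 5 target genes that were higher were *Bhlhe40*, *Pdgfb*, *Col1a1*, *Col3a1* and *Tgfbi*, with log2 fold changes from 0.53 to 0.85, and they are named in addition to those fixed by rule. *Col1a1* and *Pdgfb* were above the detection limit on 5 WD SW arrays and 1 CD array each, so they entered the test only through the diet in which they were higher. *Junb*, a transcription factor gene induced early by TGF-β, was lower, at -0.93 ± 0.24 (limma adjusted p = 0.00865), and *Id3*, a target of BMP signalling, at -0.80 ± 0.24 (limma adjusted p = 0.0209), a call that was also lost on leaving out single arrays. *Id2* was also lower. *Acta2*, the myofibroblast actin gene, differed by -0.04 ± 0.31 (limma adjusted p = 0.937). With brightness as a covariate 1 of the 18 was higher (*Fn1*, 2.51 ± 0.54, limma adjusted p = 0.0204) and 0 were lower, while the median was 0.63. *Fn1* and *Ccn2* are also expressed by hepatocytes or made under other signals, and what part TGF-β had in these values was not tested.

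**Figure D5:**
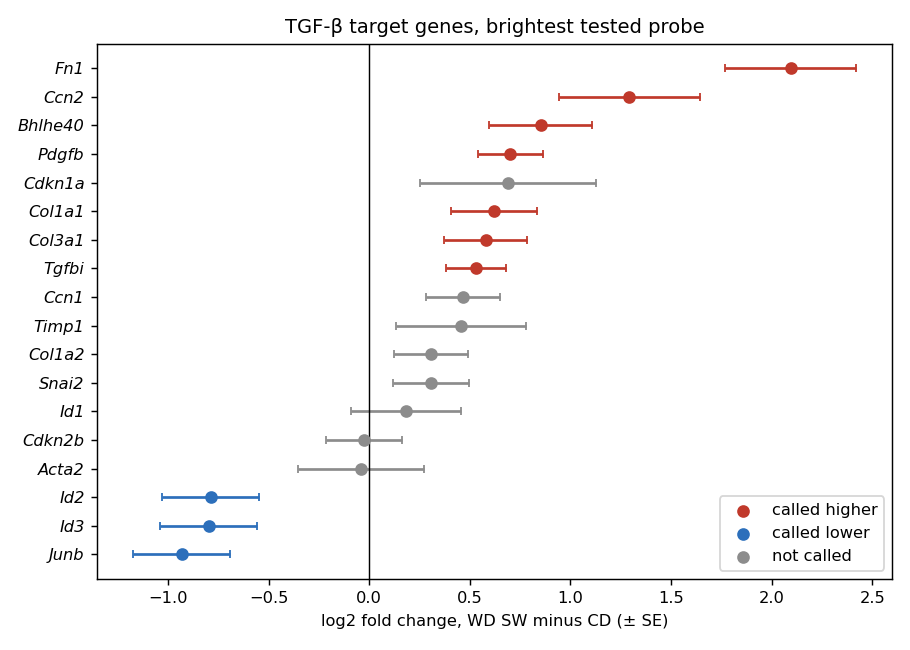
Log2 fold change (WD SW minus CD, ± SE, horizontal axis) of the 18 tested TGF-β target genes, each by its brightest tested probe, coloured by the limma call over all tested probes. *Fn1* (2.09) and *Ccn2* (1.29) lie farthest to the right and *Junb* (-0.93) farthest to the left.

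Of 3 genes that the study names in its signalling networks besides *Tgfbr2* and *Smad3*, *Jak2*, a cytokine receptor kinase gene, was higher by 0.59 ± 0.13 (limma adjusted p = 0.00407) and *Ilk*, the gene for integrin-linked kinase, by 0.70 ± 0.17 (limma adjusted p = 0.00568). *Ctnnb1*, the β-catenin gene, differed by -0.05 ± 0.15 (limma adjusted p = 0.839), with its 4 probes from -0.73 to 0.48. The study describes a network holding these genes, *Tgfbr2* and *Smad3* as the main one raised by WD SW at 8 weeks. In the fit without a covariate *Jak2*, *Ilk* and *Tgfbr2* were higher, *Smad3* was lower and *Ctnnb1* was not called. The study chose these genes, *Tgfbr2* and *Smad3* included, on these samples, so their direction is not independent evidence. With brightness as a covariate *Jak2* and *Ilk* missed the threshold, at 0.40 ± 0.21 and 0.43 ± 0.27.

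Markers of other liver cell types were read beside these results, and most of them did not pass the threshold. Of 9 tested Kupffer cell and macrophage markers, 3 were higher and 1 was lower, with a median of 0.50 and a summed linear intensity of 2117 to 3237 on WD SW arrays and 1358 to 2945 on CD arrays. *C1qb*, a complement gene of macrophages, was higher by 1.67 ± 0.26, the scavenger receptor gene *Cd163* was lower, at -2.02 ± 0.29, and *Cd5l* was below the detection limit on every array. Of 12 sinusoidal endothelial markers, 3 were higher and 1 was lower, with a median of 0.26 and sums of 4336 to 5677 on WD SW arrays and 3363 to 5381 on CD arrays. *Lyve1* and *Fcgr2b* were higher by 1.26 ± 0.34 and 1.13 ± 0.17, although the 3 tested *Fcgr2b* probes ran from -0.17 to 1.13. *Cd163* and *Fcgr2b* missed the threshold with brightness as a covariate (limma adjusted p = 0.112 and 0.0783). The sums of the diets overlapped in both lists. CD replicate 1, the array with the lowest *Tgfbr2*, had the lowest sum in both lists and the highest sum of the CD arrays in the stellate cell list that follows.

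Of 10 tested stellate cell markers, 2 were higher (*Dcn* and *Col14a1*, 0.58 ± 0.16) and 0 were lower, with a median of 0.08 and sums of 6541 to 8175 on WD SW arrays and 5281 to 6379 on CD arrays. *Dcn*, with mean log2 intensities of 12.40 in WD SW and 12.02 in CD, made up most of these sums, and its tested probes ran from -0.43 to 1.79. With brightness as a covariate both genes missed the threshold. *Dcn* stood at 0.25 ± 0.22 and *Col14a1* at 0.84 ± 0.26 in that fit, with limma adjusted p values of 0.561 and 0.0740. *Hand2* was below the detection limit on every array. The part of these cells in the *Tgfbr2* difference was not tested. Of 2 tested biliary markers *Sox9* was lower, at -2.11 ± 0.23 with another probe at -0.35, and *Krt19* and *Epcam* were below the detection limit. None of the 3 tested lymphocyte markers or the 2 tested platelet markers passed the threshold, with *Ptprc* at 0.34 ± 0.16 and *Pf4* at 0.31 ± 0.18. All 12 hepatocyte markers were tested, 3 higher and 5 lower, with a median of 0.10 and sums of 125630 to 142090 on WD SW arrays and 109490 to 124990 on CD arrays. *Apob* was higher by 1.49 ± 0.20 and the *Alb* probe was lower, at -1.93 ± 0.22. That *Alb* probe had a log2 intensity of 7.534 on WD SW replicate 1 and of 6.889 to 7.051 on the other WD SW arrays. Whether it reads the main *Alb* transcript was not tested, so its value is not read as a fall of albumin mRNA.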

How the data were processed

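RNA of 5 WD SW and 5 CD livers had been hybridised to Illumina mouse bead arrays. The authors deposited unnormalized probe signals, a linear intensity with the background not subtracted, and a table of intensities they had normalized by a method not given in the sources used here. The first was the starting point and the second an alternative. Signals were corrected with normexp (offset 16, fitted on all probes), quantile normalized and log2 transformed with limma 3.58.1 in R 4.3.3. Quantile normalization gives all arrays 1 distribution, so a shift shared by most genes is not seen. A probe counted as detected above the mode of the log2 signals (kernel bandwidth 0.02) at a one-sided p of 0.05, the spread being the SD of the signals below the mode, and probes detected on at least 5 arrays were tested.

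Differences (WD SW minus CD) were tested per probe with limma on 10 arrays and no covariate, the p-values being adjusted by Benjamini-Hochberg over all 17368 tested probes with a threshold of 0.05. The brightest tested probe stood for a gene. Names came from the platform annotation, which gave 34885 probes 1 symbol, 18 several and 10378 none, and 34807 matched the RefSeq gene table (GRCm38.p6). The genes named were the members, up to 2 called higher and 2 called lower per list (the brightest where none was called), and 3 genes most like *Tgfbr2* and *Smad3*, while *Tgfb1*, not tested, had none. The members, lists and alternatives were chosen with earlier results of these data known. The labels do not say that the samples came from separate animals, the study describes mice, and p-values cover only the spread among the samples. No 2 arrays were duplicates, the highest correlation being 0.988. The number of arrays limits the precision. The alternatives covered background correction, scaling, detection, choice of probe, variance model, array weights, the number in the sample title as a random block, array brightness and leaving out arrays.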

Additional observations from a re-analysis of the deposited data

Results flagged for a closer look

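In 7 of 78 groups of 5 arrays, 1 array stood apart from the rest of its diet. Chance alone flags about 1 group in 20. For *Smad3* (ILMN_2772582), CD replicate 1 had a log2 intensity of 8.649, where the other CD arrays lay between 9.259 and 9.483. This CD array had a brightness in the WD SW range. CD replicate 5 had 6.149 for *Inhbe*, where the rest of CD lay between 7.324 and 7.535, and 5.839 for *C1qb*, against 6.652 to 6.889. CD replicate 2 had 8.777 for *Tab2*, against 9.628 to 9.947. Among the WD SW arrays, replicate 5 had 6.518 for *Rock1*, against 6.258 to 6.308, replicate 3 had 7.762 for *Lyve1*, against 6.367 to 6.725, and replicate 1 had 7.534 for *Alb*, against 6.889 to 7.051.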

How the results depend on the processing

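*Tgfbr2* was called higher under all 26 alternatives, with log2 fold changes from 0.59 to 1.38. Leaving out each array in turn gave 0.59 to 0.88 for *Tgfbr2*, -0.83 to -0.55 for the brighter and -0.78 to -0.59 for the dimmer *Smad3* probe, all of them called. The calls of *Smad3* were lost with brightness as a covariate and against CD replicate 1 alone, so that the member probes called lower numbered 0 in both, and 1 without CD replicates 3 and 4 (member genes 0 in each). That lone control is assumed to vary like the other arrays. Without the detection filter 2 member probes were called higher, and the 2 are *Tgfbr2* probes, so the member genes called higher stayed at 1. The added probe was ILMN_1242086 (0.61 ± 0.13, limma adjusted p = 0.00406), above the detection limit on 2 WD SW arrays and 0 CD arrays. Median scaling shifted the median of all probes to -0.24. It raised the calls over all probes to 8201, against 5417 (the share higher was 27.4%, against 55.0%, and 41.8% with detection required on all 10 arrays), and the pathway genes called lower to 24. With the covariate 823 probes were called, and 2 pathway genes were higher and 1 lower. Against CD replicate 1 alone these were 1587, 4 and 3. Leaving out 1 array gave 8 to 15 pathway genes called lower, with 8 without WD SW replicate 1 or 3. Each of the 10 arrays, when left out, ended at least 1 of the calls of *Itgav*, *Dcn*, *Ep300*, *Tab2*, *Rock1* and *Id3*.

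Differences that missed the threshold turned sign in some settings. *Tgfbr3* (ILMN_2789239) stood at -0.33 with median scaling, -0.073 with cyclic loess, -0.0041 in the authors' values, -0.35 with the covariate, -0.15 against CD replicate 1, -0.14 without CD replicates 3 and 4, and between -0.15 and 0.14 on leaving out 1 array (-0.03 without WD SW replicate 2 or 5, -0.15 without CD replicate 4). *Tgfbr1* stood at -0.065 with its probes averaged, and its dimmer probe at 0.37 with the covariate and 0.45 against CD replicate 1. *Smad2* stood at 0.070 against CD replicate 1 and *Ptprc* at -0.18 with median scaling. *Ctnnb1* stood at 0.23 with the covariate, 0.22 against CD replicate 1, 0.11 without CD replicates 3 and 4, and between -0.11 and 0.03 on leaving out 1 array (0.01 without WD SW replicate 5, 0.028 without CD replicate 3). Where no cause is named, the cause was not tested. No paired analysis was possible because the replicate numbers follow the order of listing and pair no arrays. With the title number as a random block (consensus correlation 0.21) no member gained or lost a call, but 11 pathway genes were called higher and 9 lower, and *Itgav*, *Dcn*, *Ep300*, *Tab2*, *Rock1* and *Id3* lost theirs. Signals near the background limit what can be said of the ligands, *Tgfbr3* and *Smad7*.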
